A study of Mus musculus with 6 samples.

Results

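The genes described here encode the laminin chains, the nidogens and perlecan, the non-collagen core of the basement membrane. They were chosen by symbol as the alpha chain genes Lama2, Lama3, Lama4 and Lama5, the beta chain genes Lamb1 and Lamb2, the gamma chain gene Lamc1, the nidogen genes Nid1 and Nid2, and the perlecan gene Hspg2. All 10 were listed among the 32179 genes of the deposited table, and all 10 were among the 12735 genes whose mean over the libraries was at least 10 and which were therefore tested. RNA was sequenced from vascular smooth muscle cells of mouse skeletal muscle in 3 iSM-G5C-KO libraries, called KO below, and 3 control libraries, called CTRL. All mice were male C57BL6J of 8 to 24 weeks that carried the mTmG reporter and had been given tamoxifen, and the source label of both groups says Gprc5c-floxed, while the genotype label is iSM-G5C-KO for KO and wild type for CTRL. In the KO mice GPRC5C, an orphan G protein-coupled receptor, was depleted from smooth muscle, and the comparison asks how gene expression differed in these cells. The mTmG reporter switches to EGFP in cells where Cre has recombined. Viable EGFP-positive cells were sorted after cells carrying CD31, CD45 or Ter119 had been removed. The sources used here do not name the promoter that drives Cre, and they do not say whether a library came from 1 animal or a pool, or whether the libraries of a group came from different animals. The p-values therefore cover only the spread between these libraries, which may be technical.

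A basement membrane is a thin sheet of matrix that surrounds each smooth muscle cell and underlies the endothelium. Laminins are trimers of 1 alpha, 1 beta and 1 gamma chain that join into a polymer at the cell surface, where integrins and dystroglycan hold them through the alpha chain. Nidogens bind the laminin gamma 1 chain and link it to the type IV collagen network, and perlecan, a large proteoglycan with heparan sulfate chains, also binds both. In muscle the alpha 2 chain is the main alpha chain of the basement membrane around the fibres, while alpha 4 and alpha 5 are known as the alpha chains of the vessel wall.

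The libraries held an estimated 2581454, 2200237 and 1479598 reads in KO libraries 1, 2 and 3, and 2935114, 2253883 and 1556750 in CTRL libraries 1, 2 and 3, as recovered from the spacing of low values. CTRL library 3 stood apart with 29707 genes above 0, of which 7733 had a value of 1, while the other libraries had 20481 to 21179 genes above 0, of which 2734 to 3867 were at 1. Gprc5c had normalised counts of 328, 305 and 360 in KO libraries 1, 2 and 3, against 428, 532 and 497 in CTRL libraries. No KO value overlapped a CTRL value, and the KO mean was 68.2% of the CTRL mean, but the difference was not called by limma after adjustment over all genes (log2 fold change -0.55, SE 0.13, unadjusted p = 0.00323, adjusted p = 0.999). Smooth muscle markers were present in every library, with a summed normalised count of 12202 to 14148 over 10 genes in KO libraries and 13809 to 14346 in CTRL libraries. Myh11, smooth muscle myosin, was at 3883 to 4742 in KO libraries and at 4218 to 4940 in CTRL libraries. Markers of other cells were present too. The 17 endothelial genes summed to 1016 to 2065 in KO libraries and 963 to 1574 in CTRL libraries, and no marker gene of the 9 cell type lists was at 0 in every library. Replicate numbers were shared between groups and behaved as pairs, since libraries with the same number deviated together from their group means. A fit with the number as a block is therefore given beside the fit without it.

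Promoter sequences of a few members are shown because the members did not vary in step between libraries. Lama5 was highest in both libraries numbered 1, where Lamb1 and Nid1 were lowest, and Lama2 is the alpha chain of muscle. Each sequence is the 250 bases before the transcription start in the RefSeq table, build GRCm38.p6, 5′ to 3′ on the gene's strand. Capitals mark matches, on either strand, to the GC box GGGCGG, the CCAAT box CCAAT, the TATA box TATAAA, or the CArG box, the sequence to which serum response factor binds.
Lama5, chr2:180225860-180226109, minus strand: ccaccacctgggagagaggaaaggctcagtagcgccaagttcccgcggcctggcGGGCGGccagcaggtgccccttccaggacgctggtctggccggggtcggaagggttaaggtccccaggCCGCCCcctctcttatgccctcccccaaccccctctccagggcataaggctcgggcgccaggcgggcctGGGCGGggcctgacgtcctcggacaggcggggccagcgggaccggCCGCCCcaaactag
Lamb1, chr12:31265043-31265292, plus strand: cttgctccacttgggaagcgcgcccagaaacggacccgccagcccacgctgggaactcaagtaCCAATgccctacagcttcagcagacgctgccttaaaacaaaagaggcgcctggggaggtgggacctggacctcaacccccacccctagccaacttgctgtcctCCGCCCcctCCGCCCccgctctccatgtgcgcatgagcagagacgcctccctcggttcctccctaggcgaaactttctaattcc
Nid1, chr13:13437352-13437601, plus strand: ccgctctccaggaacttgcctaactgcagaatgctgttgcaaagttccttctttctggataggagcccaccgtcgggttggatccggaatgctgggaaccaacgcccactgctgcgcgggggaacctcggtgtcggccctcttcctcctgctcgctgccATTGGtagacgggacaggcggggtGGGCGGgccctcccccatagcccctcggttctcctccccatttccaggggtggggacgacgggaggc
Lama2, chr10:27616943-27617192, minus strand: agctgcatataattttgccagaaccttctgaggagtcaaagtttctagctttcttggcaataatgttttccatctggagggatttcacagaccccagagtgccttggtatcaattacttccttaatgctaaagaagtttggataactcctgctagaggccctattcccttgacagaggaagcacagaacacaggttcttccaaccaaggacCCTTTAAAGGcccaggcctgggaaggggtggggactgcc

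The Lama5 window held 4 GC boxes, the first base of each lying at -196, -128, -59 and -14 from the start, and 72.4% of its bases were G or C. Lamb1 had 2 GC boxes at -84 and -75 and a CCAAT box at -187, with 62.0% G or C, and Nid1 had 1 GC box at -67 and a CCAAT box at -91, with 64.4% G or C. The Lama2 window differed in make-up, with 47.2% G or C, no GC box and 1 CArG box from -39 to -30. Windows were also read for Hspg2 and Lamb2. The Hspg2 window held 5 GC boxes and 70.0% G or C. That of Lamb2 held none of the motifs and 43.6% G or C. In all, windows of 6 of the 10 members were read. Over all 32851 windows of the same length the median was 52.4% G or C, and 32.7% held a GC box, 33.8% a CCAAT box, 12.4% a TATA box and 1.5% a CArG box. The searched motifs did not overlap in these windows, and a match describes letters, not a bound site.

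Per kilobase of annotated exon, the transcripts of the beta 2 chain, perlecan and the gamma 1 chain were the most abundant of the family. The length of a gene merged the exons of all its annotated transcripts, and the order depends on that choice. Averaged over the 6 libraries, Lamb2 stood at 309.9 normalised counts per kb, Hspg2 at 257, Lamc1 at 204, Nid1 at 195 and Lama5 at 170. Lamb1 stood at 81.6, Lama2 at 76.9, Lama4 at 74.9, Nid2 at 58.9 and Lama3 at 10.9 per kb. Ranges over the libraries were separate at 3 steps of this order, Hspg2 above Lamc1, Lama5 above Lamb1 and Nid2 above Lama3. Lamb2 also exceeded Hspg2 in 6 of 6 libraries, although their ranges met. The middle of the order was not resolved: Lamc1 exceeded Nid1 in 3 of 6 libraries, Nid1 exceeded Lama5 in 3 of 6, Lamb1 exceeded Lama2 in 4 of 6 and Lama2 exceeded Lama4 in 2 of 6.

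None of the 10 members passed limma's test between KO and CTRL libraries over all genes, and the values of the groups overlapped for each of them. The lowest level per kb belonged to Lama3, the alpha chain of epithelial laminins, and the member with the widest gap between group means was Lama5, which was lower in KO libraries.

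**Figure D1:**
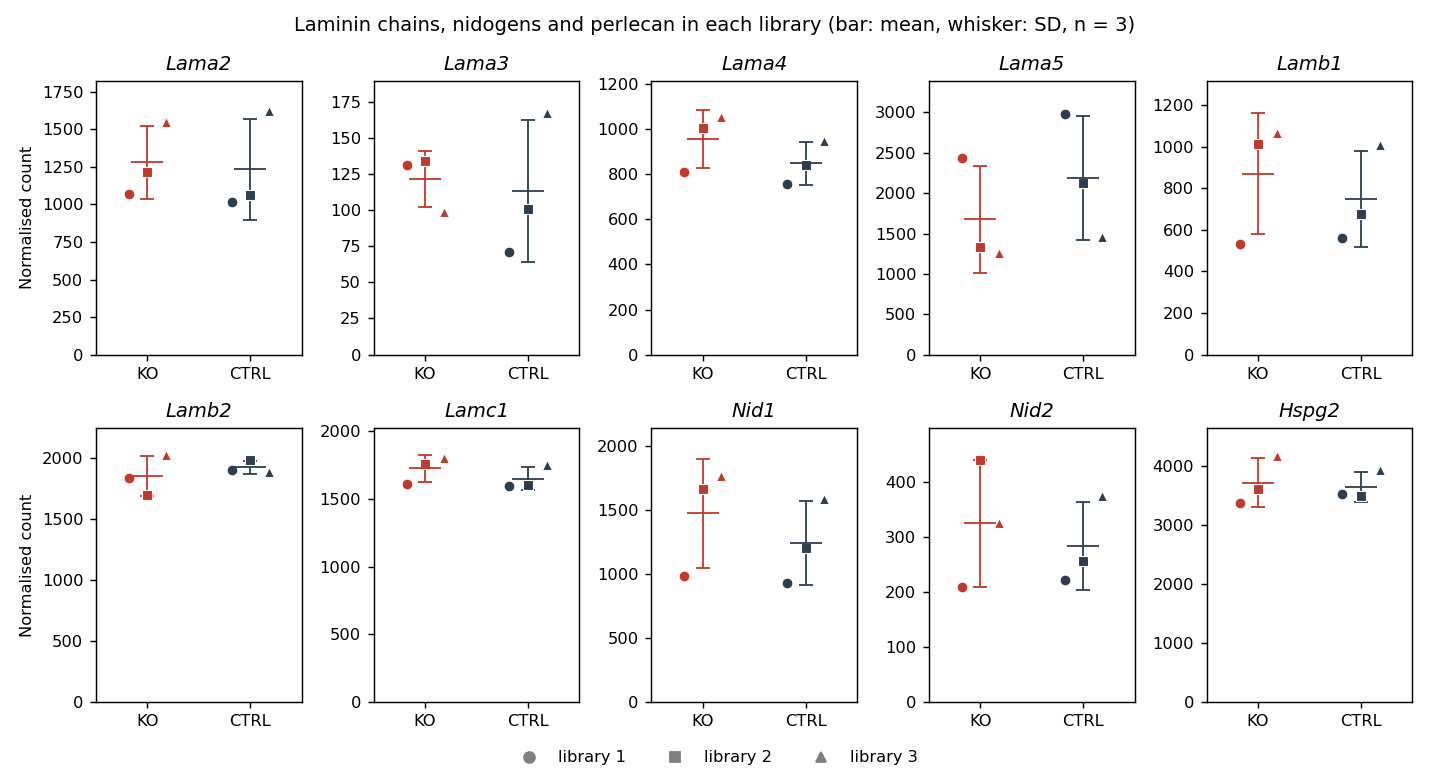
Normalised count (vertical axes, each starting at 0) of the 10 members in KO and CTRL libraries 1, 2 and 3; points are libraries, the horizontal bar is the mean and the whisker the SD of 3 libraries. Groups overlap in every panel, Lama5 is highest in the libraries numbered 1 (2435 in KO and 2982 in CTRL), and Nid1 is lowest there (987 in KO and 932 in CTRL).

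Of the alpha chain genes, Lama5 (ENSMUSG00000015647, GRCm38 chromosome 2, 180176373 to 180225859, minus strand) had normalised counts of 2435, 1329 and 1259 in KO libraries 1, 2 and 3, against 2982, 2122 and 1458 in CTRL libraries 1, 2 and 3. It was lower in KO in each pair of same-numbered libraries, but the first KO library was above CTRL libraries 2 and 3. The means were 1674 ± 660 in KO and 2187 ± 764 in CTRL (SD, n = 3 each), so the KO mean was 76.5% of the CTRL mean. The log2 fold change was -0.39 (SE 0.33, unadjusted p = 0.269 and adjusted p = 0.999 by limma). With the replicate number as a block the SE was 0.09 and the unadjusted p 0.00248, and the adjusted p was 0.211, the lowest of the 10 members and above the threshold of 0.05. Without the block the fold change was -0.70 when KO library 1 was left out and -0.14 when CTRL library 1 was left out.

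Lama4 (ENSMUSG00000019846, chromosome 10, 38965515 to 39110188, plus strand), the alpha chain made widely in vessels, had 812, 1007 and 1055 in KO libraries and 757, 841 and 948 in CTRL libraries. It was higher in KO in each same-numbered pair, by 0.10, 0.26 and 0.15 on the log2 scale, while the groups overlapped. The means were 958 ± 129 in KO and 848.7 ± 95.7 in CTRL (SD, n = 3 each), a log2 fold change of 0.17 (SE 0.15, unadjusted p = 0.285 by limma, and 0.0404 with the block, adjusted p = 0.460).

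Lama2 (ENSMUSG00000019899, chromosome 10, 26981285 to 27616843, minus strand), whose loss causes a congenital muscular dystrophy, had 1069, 1219 and 1550 in KO libraries and 1017, 1063 and 1620 in CTRL libraries. The libraries numbered 3 were the highest of each group, and the difference between groups was small beside that spread (log2 fold change 0.07, SE 0.22, unadjusted p = 0.764 by limma). Lama3 (ENSMUSG00000024421, chromosome 18, 12333819 to 12583013, plus strand) had 131, 134 and 99 in KO libraries and 71, 101 and 167 in CTRL libraries. Its same-numbered pairs went both ways, 0.87, 0.40 and -0.75 on the log2 scale, around a fold change of 0.18 (SE 0.30, unadjusted p = 0.573 by limma).

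Of the beta chain genes, Lamb2 (ENSMUSG00000052911, chromosome 9, 108479857 to 108490530, plus strand), the beta chain of arterial and neuromuscular laminins, had 1836, 1693 and 2021 in KO libraries and 1896, 1977 and 1886 in CTRL libraries. It was among the steadiest members, with means of 1850 ± 164 in KO and 1920 ± 49.9 in CTRL (SD, n = 3 each) and a log2 fold change of -0.06 (SE 0.13, unadjusted p = 0.663 by limma). Lamb1 (ENSMUSG00000002900, chromosome 12, 31265234 to 31329644, plus strand), the more widely made beta chain, had 534, 1010 and 1067 in KO libraries and 560, 678 and 1006 in CTRL libraries. The low values were those of both libraries numbered 1, and only the pair numbered 2 differed by much, 0.57 on the log2 scale against -0.07 for number 1 and 0.09 for number 3. The log2 fold change of Lamb1 was 0.20 (SE 0.31, unadjusted p = 0.546 by limma).

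Lamc1 (ENSMUSG00000026478, chromosome 1, 153218922 to 153332786, minus strand) encodes the gamma 1 chain, which all of the common laminin trimers share and which carries the nidogen-binding site. It had 1614, 1760 and 1807 in KO libraries and 1600, 1602 and 1751 in CTRL libraries. This was the narrowest spread of the family, the highest library being 1.13 times the lowest. The log2 fold change was 0.06 (SE 0.12, unadjusted p = 0.606 by limma), and the KO library was higher in each of the 3 pairs, by 0.01, 0.14 and 0.04 on the log2 scale.

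The nidogen Nid1 (ENSMUSG00000005397, chromosome 13, 13437551 to 13512269, plus strand) had 987, 1668 and 1766 in KO libraries and 932, 1201 and 1588 in CTRL libraries. Values were near each other in the libraries numbered 1 and the KO library was higher in each pair, by 0.08, 0.47 and 0.15 on the log2 scale. The means were 1474 ± 424 in KO and 1240 ± 330 in CTRL (SD, n = 3 each), and the log2 fold change was 0.24 (SE 0.27, unadjusted p = 0.415 by limma, and 0.0245 with the block, adjusted p = 0.399). Nid2 (ENSMUSG00000021806, chromosome 14, 19751265 to 19811787, plus strand), which binds laminin as Nid1 does, had 209, 441 and 325 in KO libraries and 222, 256 and 374 in CTRL libraries. KO library 2 was the highest of all 6, and the other 2 pairs went the opposite way, so the log2 fold change of 0.16 (SE 0.30, unadjusted p = 0.595 by limma) became -0.09 without it. A stretch of 437 exon bases of Nid2, 8.45% of its length, overlaps exons of Rtraf on the opposite strand. Rtraf was at no more than 100 in any library, and the sources used here do not say if counting was strand-specific.

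Hspg2 (ENSMUSG00000028763, chromosome 4, 137468769 to 137570630, plus strand) encodes the perlecan core protein. It had 3366, 3602 and 4176 in KO libraries and 3516, 3489 and 3937 in CTRL libraries. The groups overlapped, although KO library 1 was below and KO library 3 above every CTRL value. The means were 3715 ± 417 in KO and 3647 ± 251 in CTRL (SD, n = 3 each), with a log2 fold change of 0.02 (SE 0.15, unadjusted p = 0.882 by limma), the smallest difference of the 10.

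Over all genes tested limma called 0 genes at an adjusted p under 0.05, a background of 0.0%, and 0 of the 10 members. With the replicate block it called 1 gene, 0.00785% of those tested, and again 0 members, whose adjusted p was at least 0.211. At an unadjusted p under 0.05 the fit without the block held 230 genes, a background of 1.81%, and 0 members. With the block that rule held 1305 genes, a background of 10.2%, and 3 of the 10 members, Lama4 and Nid1 higher and Lama5 lower in KO. Groups did not overlap for 625 genes, a background of 4.91%, and for 0 members. All 3 same-numbered pairs differed in 1 direction for 3740 genes, a background of 29.4%, and for 4 of the 10 members, Lama4, Lamc1 and Nid1 higher and Lama5 lower in KO. The fold change was above 0 for 8 of the 10 members, against 50.2% of all genes tested. The median log2 fold change of the members was 0.12, against 0.00 over all genes tested, and in the pairs numbered 1, 2 and 3 the members' median difference was -0.02, 0.23 and 0.07. The first of these signs differs from the others, so the members were not higher together in every pair. The members' median was 0.0014 without CTRL library 1 and 0.27 without CTRL library 3.

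**Figure D2:**
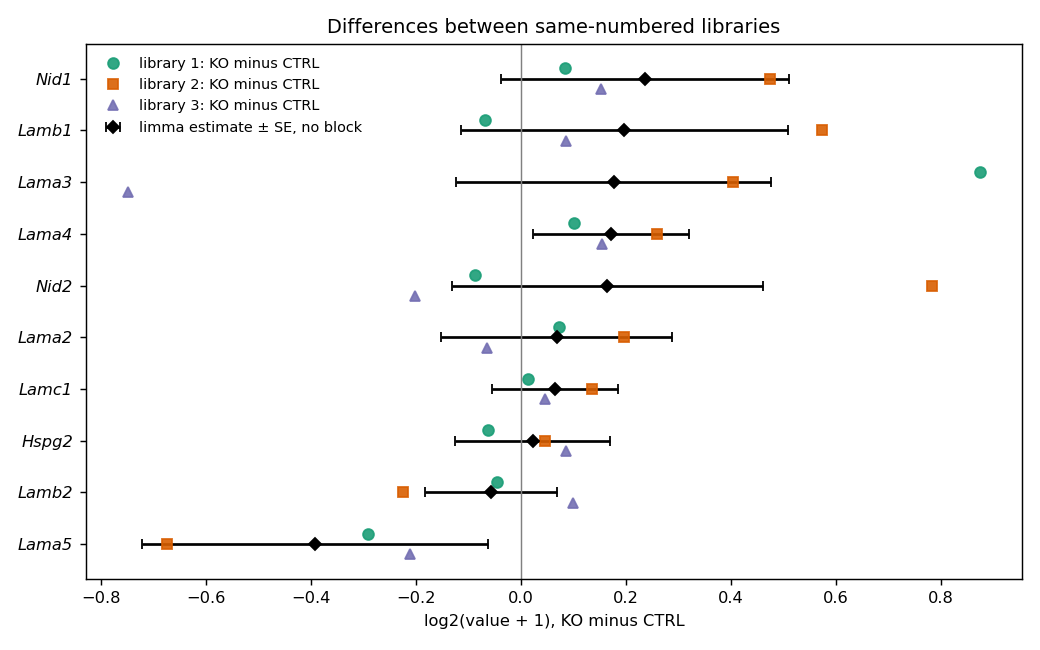
Difference of log2(value + 1), KO minus CTRL (horizontal axis), for each member (vertical axis) in the library pairs numbered 1, 2 and 3 (coloured points), with limma's estimate and its SE without the block (black diamond and bar). Lama5 lies below 0 in all 3 pairs (-0.29, -0.68 and -0.21), Lama4, Lamc1 and Nid1 lie above 0 in all 3, and the pair numbered 2 is the farthest from 0 for Nid2 (0.78) and Lamb1 (0.57).

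Ratios of members within a library do not depend on how the libraries were scaled, and 5 of them were compared by a 2-sided exact permutation test. With 3 libraries a group it cannot give a p below 0.1. The ratio of Lama5 to Lama4 counts set the alpha chains known from vessels side by side. It was 2.999, 1.32 and 1.19 in KO libraries 1, 2 and 3, against 3.94, 2.52 and 1.54 in CTRL libraries 1, 2 and 3. The KO library was lower in each pair, the groups overlapped, and the difference of means was -0.56 on the log2 scale (exact p = 0.4, adjusted over the 5 ratios 0.75). The direction in each pair is not a separate result. It follows from Lama5 being lower and Lama4 higher in KO in each pair, as given above. The log2 means were 0.75 ± 0.73 in KO and 1.31 ± 0.68 in CTRL (SD, n = 3 each), so the difference was smaller than 1 SD of either group. Taken as differences within the 3 pairs, -0.39, -0.93 and -0.37, the exact sign-flip permutation p was 0.25. This is the smallest that 3 pairs allow, and the shared direction alone fixes it. The unpaired difference was -0.98 without KO library 1 and -0.23 without CTRL library 1.

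The other ratios differed less. Lama2 over Lama4 was 1.32, 1.21 and 1.47 in KO libraries and 1.34, 1.26 and 1.71 in CTRL libraries (difference -0.10 on the log2 scale, exact p = 0.6, adjusted p = 0.75). Lamb2 over Lamb1 was 3.44, 1.68 and 1.89 in KO libraries and 3.39, 2.92 and 1.88 in CTRL libraries (difference -0.25, exact p = 0.8, adjusted p = 0.8). The pairs numbered 1 and 3 were nearly equal for this ratio and the pair numbered 2 held the difference, which was -0.05 without KO library 2 and -0.57 without KO library 1. Nid2 over Nid1 was 0.212, 0.264 and 0.184 in KO libraries and 0.238, 0.213 and 0.236 in CTRL libraries (difference -0.07, exact p = 0.6, adjusted p = 0.75). Hspg2 over Lamc1 was 2.09, 2.05 and 2.31 in KO libraries and 2.20, 2.18 and 2.25 in CTRL libraries (difference -0.04, exact p = 0.5, adjusted p = 0.75).

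**Figure D3:**
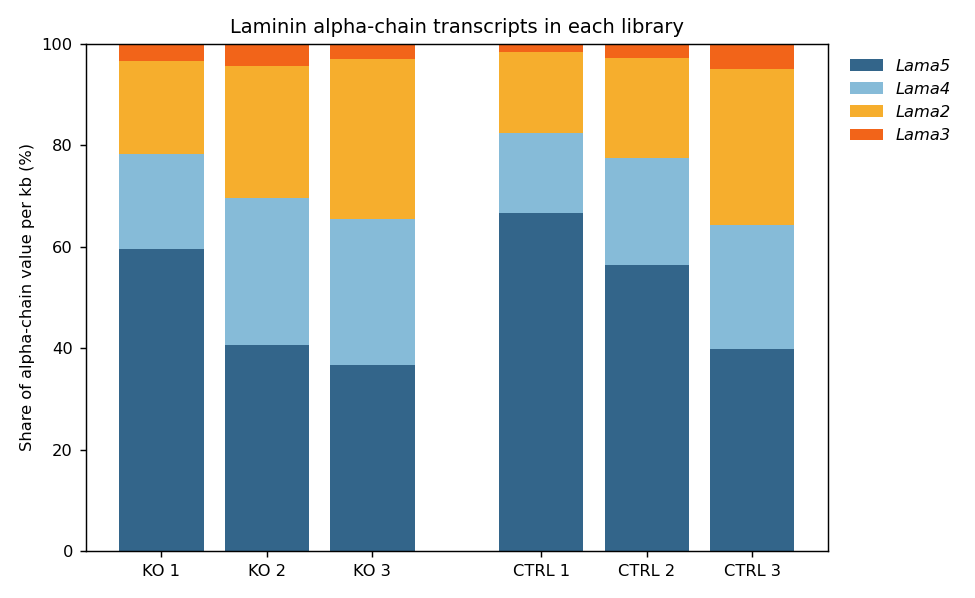
Share (%) of the alpha-chain normalised counts per kb of exon held by Lama5, Lama4, Lama2 and Lama3 (stacked bars, summing to 100) in KO libraries 1 to 3 and CTRL libraries 1 to 3. By this length, which merges the exons of all annotated transcripts of a gene, Lama5 holds the largest share in every library. Its share is lower in the libraries numbered 3 (36.6% in KO and 39.9% in CTRL) than in those numbered 1 (59.6% in KO and 66.6% in CTRL).

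Per kb of exon, Lama5 made up 59.6%, 40.6% and 36.6% of the alpha chain transcripts in KO libraries 1, 2 and 3, against 66.6%, 56.4% and 39.9% in CTRL libraries. The share of Lama4 was 18.8%, 29.1% and 28.9% in KO libraries and 15.9%, 21.1% and 24.5% in CTRL libraries, and that of Lama2 was 18.2%, 26.0% and 31.4% in KO libraries and 15.8%, 19.7% and 30.9% in CTRL libraries. Lama3 stayed between 3.05% and 4.34% in KO libraries and between 1.68% and 4.84% in CTRL libraries. These shares depend on the merged exon lengths used, 11388 bases for Lama5, 16338 for Lama2 and 12068 for Lama4. Before division by length, Lama2 exceeded Lama5 in the libraries numbered 3, at 1550 against 1259 in KO and 1620 against 1458 in CTRL. The Lama5 share averaged 45.6% ± 12.3 in KO and 54.3% ± 13.5 in CTRL libraries (SD, n = 3 each), a difference within 1 SD of either group. It was lower in KO in each of the 3 same-numbered pairs, and the shares of Lama4 and Lama2 were higher in each. The shares are parts of 1 whole, so a lower Lama5 share raises the sum of the others by construction. The higher shares are therefore not a separate result. In the pair numbered 3 the Lama2 count was lower in KO, at 1550 against 1620, while its share was higher. Lamb2 held 84.9%, 73.2% and 75.5% of the beta chain transcripts in KO libraries and 84.7%, 82.6% and 75.4% in CTRL libraries, and Nid1 held 73.8% to 80.2% of the nidogen transcripts in KO libraries and 75.8% to 77.8% in CTRL libraries. Summed per kb, the alpha chains were at 359, 287 and 302 in KO libraries and 393, 331 and 321 in CTRL libraries, and the beta chains at 356, 380 and 440 in KO libraries and 368, 393 and 412 in CTRL libraries. The gamma 1 chain alone was at 195, 213 and 218 in KO libraries and 193, 194 and 212 in CTRL libraries, so in each library both the alpha sum and the beta sum exceeded it.

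The spread between libraries of a group differed widely among the members. The within-group SD on the log2 scale was 0.08 for Lamc1, 0.09 for Lamb2, 0.13 for Hspg2 and 0.18 for Lama4, below the median of 0.19 over the 3083 tested genes with a mean of at least 200. It was 0.33 for Lama2, 0.42 for Nid1, 0.47 for Nid2, 0.50 for Lamb1 and 0.52 for Lama5, above that median, and 0.47 for Lama3, whose mean is below 200. For several members the libraries numbered 1 stood apart from the rest of both groups. Lama5 averaged 2709 over the libraries numbered 1 and 1542 over those numbered 2 and 3, while Lamb1 averaged 547 over number 1 and 940.2 over the others, Nid1 959.5 and 1556, and Nid2 215.5 and 349. Lama2 averaged 1043 over number 1 and 1363 over the others, but its libraries numbered 1 did not stand apart. CTRL library 2, at 1063, was below KO library 1, at 1069. Depth was also greatest in the libraries numbered 1 and least in those numbered 3 of either group, and the effects of number and depth cannot be told apart.

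Sums over the cell type marker lists are given beside these values. Those of pericyte, endothelial and muscle fibre markers were lowest in the libraries numbered 1 and highest in those numbered 3 of either group. They were also higher in KO in each pair, as were the Schwann cell sums. The Schwann cell sums followed no such order over the numbers, at 576, 582 and 580 in KO and 571, 529 and 551 in CTRL libraries. The 10 pericyte markers summed to 11186, 14205 and 18700 in KO libraries 1, 2 and 3 and to 10515, 12478 and 16157 in CTRL libraries, led by Notch3, Abcc9 and Pdgfrb. A fold change above 0 was found for 10 of 10, with a median of 0.19, which was -0.05 without KO library 3 and 0.41 without KO library 1. The pericyte sums were of the order of the smooth muscle sums, at 14148, 12202 and 13678 in KO libraries and 13809, 14346 and 14329 in CTRL libraries. Whether the pericyte genes were read from the sorted smooth muscle cells or from other cells was not tested. The 17 endothelial markers summed to 1016, 1937 and 2065 in KO libraries and to 963, 1250 and 1574 in CTRL libraries, and 16 of the 16 tested had a fold change above 0 with a median of 0.27, which was 0.08 without CTRL library 1 and 0.74 without KO library 1. The endothelial genes of highest mean were Esam, an adhesion molecule, at 318, 401 and 465 in KO libraries and at 328, 374 and 391 in CTRL libraries (log2 fold change 0.10), Eng, or endoglin (0.40), and Flt1, which encodes VEGF receptor 1 (0.75). The 18 skeletal muscle fibre markers summed to 2638, 5378 and 9929 in KO libraries and to 1934, 3150 and 4529 in CTRL libraries, with 17 of 18 above 0 and a median of 0.24, which was -0.09 without CTRL library 1 and 0.60 without KO library 1. Ttn, which encodes titin and held the largest part of the sum in KO library 3, was at 660, 1638 and 5386 in KO libraries and 422, 442 and 868 in CTRL libraries. Not every muscle fibre marker followed the sum. Acta1 was at 240, 421 and 399 in KO libraries and at 202, 348 and 488 in CTRL libraries. Over the 18 markers the median difference was 0.36, 0.44 and 0.04 on the log2 scale in the pairs numbered 1, 2 and 3. The 12 fibroblast markers, led by Col1a1, Col1a2 and Gsn, summed to 5247, 8452 and 8201 in KO libraries and to 6131, 8022 and 9118 in CTRL libraries, with 2 of 12 above 0 and a median of -0.11, which was 0.10 without KO library 1 and -0.32 without KO library 2. The 10 smooth muscle markers, led by Myh11, Mylk and Synpo2, had a median of -0.11, with 0 of 10 above 0, and of -0.05 without KO library 2 and -0.18 without KO library 1. Sums over leukocyte markers were 475, 145 and 690 in KO libraries and 565, 142 and 606 in CTRL libraries, and those of satellite cell, Schwann cell and adipocyte markers lay within 146 to 973 in KO libraries and 159 to 853 in CTRL libraries. No marker passed limma's test over all genes, with or without the block. With the block and both libraries of number 1 omitted, an alternative chosen after seeing the data, 3 muscle fibre markers were called, and also 1 endothelial marker if the filter used all libraries. In bulk RNA fewer cells of a type and less RNA per cell cannot be told apart, and the part of these cells in the values of Lama5, Lamb1, Nid1 and Nid2 was not tested.

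The partners of the family were read from 6 lists, none of which held a gene that passed the test, with or without the block or in any other alternative. Of the other laminin-family chains and netrins, 5 were tested, of which 1 had a fold change above 0 and 4 below, with a median of -0.17. Ntn4, a netrin that binds the gamma 1 chain and breaks up laminin networks, was at 541, 496 and 524 in KO libraries and at 568, 561 and 537 in CTRL libraries (log2 fold change -0.09, unadjusted p = 0.393 by limma). Ntn1, a guidance molecule, was at 327, 188 and 206 in KO libraries and at 295, 261 and 236 in CTRL libraries, and Ntng2, a membrane-anchored netrin G, at 86, 45 and 50 in KO libraries and at 103, 80 and 61 in CTRL libraries. The laminin genes Lama1 and Lamb3 were below the level tested.

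Of 25 other basement membrane genes, 24 were tested, 12 above 0 and 12 below, with a median of -0.01. The smallest unadjusted p values among those with a mean of at least 50 belonged to Fbln1, which encodes fibulin 1, and to the type IV collagen genes Col4a5 and Col4a6. Col4a5 was at 597, 330 and 338 in KO libraries and at 674, 617 and 417 in CTRL libraries (log2 fold change -0.46, unadjusted p = 0.134 by limma). Col4a6 was at 304, 88 and 74 in KO libraries and at 338, 282 and 121 in CTRL libraries (-0.84, unadjusted p = 0.187). Both were lower in KO in each pair and highest in the libraries numbered 1, as Lama5 was. Fbln1 was at 52, 81 and 73 in KO libraries and at 67, 173 and 101 in CTRL libraries (-0.64, unadjusted p = 0.101). Col4a1, which encodes a chain of the type IV collagen of most basement membranes and is named outside the rule with its values known, was at 2435, 3239 and 3734 in KO libraries and at 2408, 2776 and 3693 in CTRL libraries (0.08, unadjusted p = 0.713).

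All 16 laminin receptor genes were tested, 11 above 0 and 5 below, with a median of 0.07. Bcam, which binds the alpha 5 chain, was at 862, 694 and 850 in KO libraries and at 958, 962 and 898 in CTRL libraries, with every KO value below every CTRL value (log2 fold change -0.23, unadjusted p = 0.106 by limma). Itga3, an integrin alpha subunit that also binds the alpha 5 chain, was at 391, 170 and 130 in KO libraries and at 409, 336 and 183 in CTRL libraries (-0.51, unadjusted p = 0.281). Itga1, the alpha 1 integrin subunit, which binds collagen IV as well as laminin, was at 1371, 1753 and 1986 in KO libraries and at 1329, 1381 and 1628 in CTRL libraries (0.23, unadjusted p = 0.226).

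The 11 genes that build the laminin-binding sugar of dystroglycan had 7 fold changes above 0 and 4 below, with a median of 0.07. Rxylt1, a xylosyltransferase of this pathway, was at 116, 132 and 150 in KO libraries and at 106, 113 and 101 in CTRL libraries, without overlap (log2 fold change 0.31, unadjusted p = 0.0655 by limma).

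Of the 20 genes that assemble or trim heparan sulfate, the sugar chain of perlecan, 18 were tested, 13 above 0 and 5 below, with a median of 0.11. Sulf1, a sulfatase that removes sulfate from these chains outside the cell, was at 263, 341 and 300 in KO libraries and at 242, 252 and 257 in CTRL libraries, without overlap (log2 fold change 0.26, unadjusted p = 0.0811 by limma). Glce, the epimerase of heparan sulfate, was at 176, 182 and 206 in KO libraries and at 153, 149 and 178 in CTRL libraries (0.23, unadjusted p = 0.115), and Extl2, a transferase of the exostosin family, at 95, 87 and 77 in KO libraries and at 73, 84 and 69 in CTRL libraries (0.19, unadjusted p = 0.247).

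Of 13 protease genes, 12 were tested, 7 above 0 and 5 below, with a median of 0.04. Adamts1, which cleaves nidogens, was at 1642, 958 and 985 in KO libraries and at 1899, 1320 and 1244 in CTRL libraries (log2 fold change -0.34, unadjusted p = 0.224 by limma). Adamts5, an aggrecan-degrading enzyme, was at 410, 322 and 192 in KO libraries and at 416, 367 and 289 in CTRL libraries (-0.27, unadjusted p = 0.369). Bmp1, which processes laminin chains and releases a fragment of perlecan, was at 273, 492 and 363 in KO libraries and at 275, 302 and 329 in CTRL libraries (0.28, unadjusted p = 0.226).

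**Figure D4:**
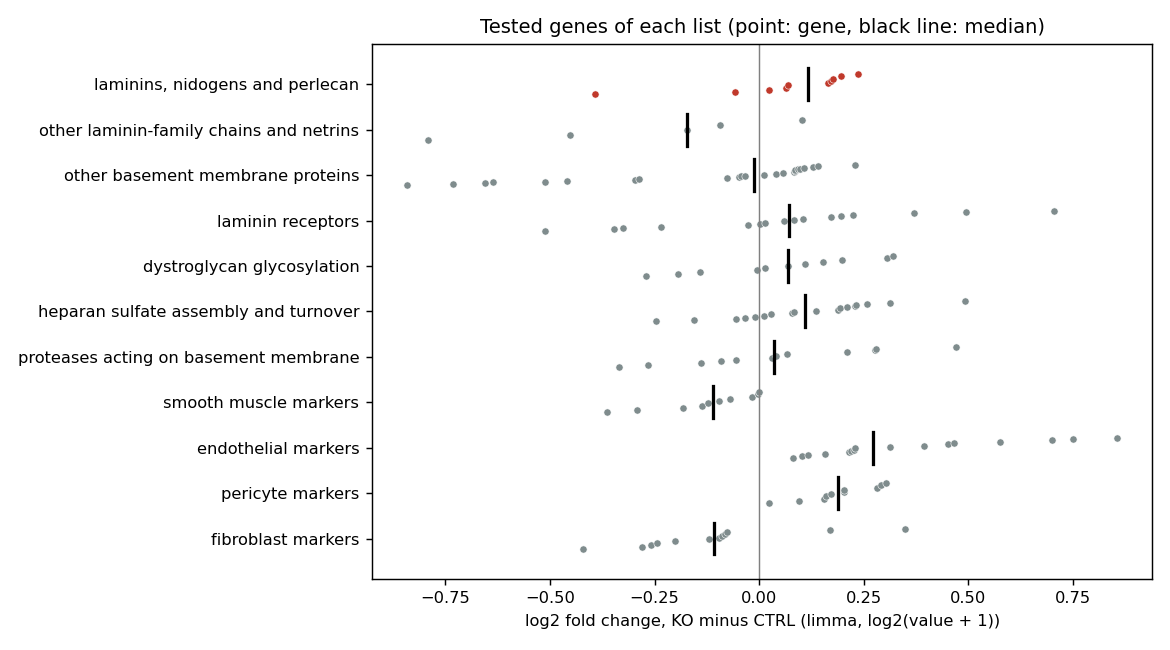
Log2 fold change, KO minus CTRL (horizontal axis), of each tested gene (points) in the family, its 6 partner lists and 4 of the marker lists (vertical axis), with the median of each list as a black line. The members' median is 0.12, the partner lists lie between -0.17 and 0.11, and endothelial (0.27) and pericyte markers (0.19) lie to the right of 0.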

How the data were processed

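The deposited table holds 1 column for each of 6 libraries, made from 5 ng of total RNA with a stranded kit for low input, per the labels' protocols. Its values are a score: gene counts scaled by the authors with a single factor in each library, then rounded, judging from gaps between low values. DESeq2 1.18.1, featureCounts 1.6.5, STAR 2.6.1d, Trimmomatic 0.39 and the builds mm10 and GRCm38.p5 appear in the submitters' processing notes, with no step given for any. Whole reads could not be recovered, so no count model was used.

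KO and CTRL libraries were compared with limma 3.58.1 (R 4.3.3, intensity trend, 2-sided) on log2(value + 1). This scale understates the change of low genes. The 12735 genes with a mean of at least 10 were tested, and p-values were adjusted over all of them by the Benjamini-Hochberg method. The procedure was tested on simulated data. Values per kb used merged GENCODE exons on GRCm38, and coordinates are those of the deposited table. Estimated reads come from a search for the worth of 1 read in each library, and they are too few for precise values of low genes.

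Deviations of libraries with the same number had a correlation over genes of 0.586 for number 1, 0.31 for number 2 and 0.444 for number 3, and of at most 0.157 with another number. The numbers were therefore taken as pairs, a pairing read from the data, because the labels do not state what a number means. Within a group, libraries differed beyond sampling noise (chi-square over its degrees of freedom 3.09 to 10.2), and each counted as 1 replicate.

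Members, lists and tests were chosen with earlier results of these data known. All members are named. Of each partner list the 3 tested genes with a mean of at least 50 and the smallest p are named, and of the marker lists those with the highest mean. Some genes that this naming rule selects are left out of the text. Of 206 list genes, 203 were matched by symbol, 2 by gene ID, and Ntn3 was not analysed here. Alternatives changed the pseudocount, filter, scaling, variance model, block and libraries.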

Additional observations from a re-analysis of the deposited data

How the results depend on the processing

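Over 19 alternatives, 15 planned and 4 chosen after seeing the data, 0 of the 10 members was called, and the lowest adjusted p of a member in limma was 0.152. The number of genes called over the whole table was 1 with the replicate block, 2 with sample quality weights, 17 with the block when number 1 was left out of both groups (61 if all libraries entered the filter), 1 with the block when number 2 was left out, and 0 whichever single library was left out; the cause was not tested. Leaving out 1 library, the members' median ranged from 0.0014 without CTRL library 1 to 0.27 without CTRL library 3.

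The sign of the fold change held in 19 of 19 alternatives for Lama4 (0.09 to 0.29), Lama5 (-0.70 to -0.14), Lamb1 (0.0082 to 0.52), Lamc1 (0.03 to 0.12) and Nid1 (0.05 to 0.50). It did not for the others. The block with all libraries, the filters and the fit without trend leave a fold change as it was by construction. Pseudocount and scaling moved it little, so the count of 19 overstates the number of separate checks. Leaving out 1 library gave -0.12 to 0.0053 for Lamb2, -0.088 to 0.45 for Nid2, -0.078 to 0.28 for Lama2, -0.065 to 0.091 for Hspg2 and -0.11 to 0.50 for Lama3. The sign of Lamb2 turned without KO library 2, of Nid2 without KO library 2, and of Lama3 without CTRL library 1, while Lama2 and Hspg2 turned without KO library 3 and without CTRL library 1 or 2. With the replicate block, the fold change of Lama3 was -0.17 with number 1 left out under either filter, those of Lamb2 and Nid2 were 0.027 and -0.14 with number 2 left out, and that of Hspg2 was -0.0085 with number 3 left out. Leaving out 1 library, the ratio of Lama2 to Lama4 gave -0.19 to 0.027 that of Nid2 to Nid1 -0.21 to 0.049, that of Lama5 to Lama4 -0.98 to -0.23, that of Lamb2 to Lamb1 -0.57 to -0.05 and that of Hspg2 to Lamc1 -0.10 to -0.01 on the log2 scale. The block changed no call of a member. How far depth limits each member was not tested.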
